A study of Mus musculus with 4 samples.

Results

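The enzymes described here are some of those that make ceramide or use it directly, and other genes of these steps come further below. The enzymes are 10 genes of the 19938 that the arrays measured: Sptlc1, Sptlc2 and Sptlc3, Cers2, Cers4, Cers5 and Cers6, Degs1, Cerk and Ugcg. They were chosen by name for their step in the pathway, and each was read by 1 probe set that names only that gene. RNA from subcutaneous adipose tissue was measured in C57Bl6 mice, aged 16 weeks, in 4 groups. WT mice had the genotype NAPE PLD lox/lox, in which the Napepld gene is flanked by loxP sites and intact, and were fed a control diet (AIN93M, WT-CT) or a high fat diet (D12492, WT-HFD). cKO mice had the genotype AP2 Cre NAPE PLD lox/lox, in which Cre recombinase is expressed from the promoter of Fabp4 (also called AP2), and were fed the same diets (cKO-CT and cKO-HFD). All 4 groups therefore carried the loxP-flanked alleles, and tissue cells without Fabp4 promoter activity kept the gene. NAPE-PLD, the product of Napepld, makes N-acylethanolamines, a family of bioactive lipids.

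The RNA of 4 to 5 mice per group, chosen by the quality of their RNA, was pooled and hybridised to 1 array. These numbers are from the labels, and the methods of the study give the upper of them for every group. An array is therefore 1 sample of its group, the spread between mice was not measured, and no difference below has an error or a test. Levels are log2 values that the authors made with RMA, a procedure that corrects background, normalizes arrays to each other and summarises the probes of a probe set. Comparisons are log2 ratios of 2 arrays, and a ratio of at least 1.5-fold (0.5850 on the log2 scale) was called higher or lower. Where 4 levels follow each other without labels, they stand for WT and then cKO mice on the control diet, and WT and then cKO mice on the high fat diet. The 95th percentile of 1027 olfactory receptor (Olfr) genes, which adipose tissue is not known for expressing, was taken as the background level, and lay at 5.39 in WT and 5.28 in cKO mice on the control diet, and 5.42 and 5.50 on the high fat diet. The level of Napepld was 8.31 in WT and 7.78 in cKO mice on the control diet, and 8.01 and 7.94 on the high fat diet. Its log2 ratio was thus -0.53 in cKO-CT mice and -0.06 in cKO-HFD mice compared with WT mice on the same diet, and where its probes lie relative to the deleted part was not given in the sources used here, so this ratio does not check the labels. All 11 measured adipocyte markers were above the background level on all 4 arrays, with a mean level of 12.05 to 12.20. Other marker lists stood apart on single arrays. Skeletal muscle markers had a mean level of 9.42 and 9.21 in WT and cKO mice on the control diet and 10.81 and 7.33 on the high fat diet, and pancreatic acinar markers 7.43, 5.56, 5.81 and 5.75.

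Ceramide is the hub of sphingolipid metabolism. In the de novo pathway, serine palmitoyltransferase joins serine to a fatty acyl-CoA, ceramide synthases add a second acyl chain to the sphingoid base, and dihydroceramide desaturase introduces the double bond that turns dihydroceramide into ceramide. Ceramide is then phosphorylated, glucosylated, converted to sphingomyelin or broken down to sphingosine. In adipose tissue and in liver, ceramides are known as lipids that interfere with insulin signalling, and the length of the acyl chain, which depends on the ceramide synthase, is known to matter for this.

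Of the 10 genes Sptlc3 had the widest range of level over the arrays and Sptlc2 the narrowest, and the 250 bases before the annotated starts of the subunits of serine palmitoyltransferase are therefore shown, from RefSeq on GRCm38.p6. SPTLC1 is the common subunit of the enzyme, and SPTLC2 and SPTLC3 are alternative catalytic subunits that are known to differ in the acyl-CoA they prefer. Each sequence is written in the direction of the gene and ends at the base before the start, and the capitals mark CG dinucleotides. Sptlc1 lies on the minus strand of chromosome 13 (chr13:53377362-53377611), Sptlc2 on the minus strand of chromosome 12 (chr12:87388356-87388605) and Sptlc3 on the plus strand of chromosome 2 (chr2:139493663-139493912).
Sptlc1: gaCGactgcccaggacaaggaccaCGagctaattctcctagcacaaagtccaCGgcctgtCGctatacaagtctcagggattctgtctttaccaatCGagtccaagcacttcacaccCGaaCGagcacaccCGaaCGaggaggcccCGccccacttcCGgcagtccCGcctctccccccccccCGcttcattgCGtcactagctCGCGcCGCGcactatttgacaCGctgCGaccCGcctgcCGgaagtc
Sptlc2: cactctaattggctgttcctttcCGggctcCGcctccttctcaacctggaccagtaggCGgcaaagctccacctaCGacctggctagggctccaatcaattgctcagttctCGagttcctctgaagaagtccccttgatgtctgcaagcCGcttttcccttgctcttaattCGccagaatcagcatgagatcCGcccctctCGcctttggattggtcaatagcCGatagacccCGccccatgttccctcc
Sptlc3: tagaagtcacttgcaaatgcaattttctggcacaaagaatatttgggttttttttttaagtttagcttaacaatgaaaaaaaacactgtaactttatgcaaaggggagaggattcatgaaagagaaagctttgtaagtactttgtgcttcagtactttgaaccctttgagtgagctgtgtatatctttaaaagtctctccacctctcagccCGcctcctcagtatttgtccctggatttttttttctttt
The Sptlc1 sequence holds 22 CG dinucleotides and that of Sptlc2 holds 11, whereas that of Sptlc3 holds 1. Among 21263 protein-coding promoters of the same length, 80.5% had fewer than Sptlc1, 52.5% fewer than Sptlc2 and 6.61% fewer than Sptlc3, with a median of 10. The content of G and C was 61.6%, 55.2% and 35.6%, against a median of 55.6%. The CCAAT box (CCAAT, either strand), found in 35.4% of all promoters, occurred once or more in Sptlc1 and Sptlc2, as did the GC box (GGGCGG, either strand), found in 42.6%. Neither had a match in Sptlc3, and the TATA box (TATAAA, either strand), found in 11.6%, had none in any of the 10 genes. The 11 promoter entries of the 10 genes, of which Cers2 has 2, held 1 to 43 CG dinucleotides, with the fewest in Sptlc3 and the most in Ugcg. These matches describe the letters and not binding.

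Sptlc3 was set apart by the cKO-HFD array. Its level was 4.89 in WT and 4.62 in cKO mice on the control diet, and 5.09 and 6.36 on the high fat diet. Only the cKO-HFD array was above the background level, by 0.86, and the other 3 arrays lay 0.33 to 0.66 below it. The log2 ratio of cKO-HFD over WT-HFD was 1.27, a 2.41-fold difference, and that of cKO-HFD over cKO-CT was 1.74, or 3.33-fold. Since the lower array of both pairs was below background, the difference is better given as a bound against the background level, which made the cKO-HFD level at least 1.92-fold higher than WT-HFD and at least 2.11-fold higher than cKO-CT. On the control diet the genotype ratio was -0.26 and in WT mice the diet ratio was 0.20, both between levels below background.

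Markers of other cell types also stood apart on the cKO-HFD array. All 12 skeletal muscle markers were at least 1.5-fold lower in cKO-HFD than in WT-HFD mice, with a median log2 ratio of -3.95, and 11 of the 12 were still above background on cKO-HFD. The log2 of their summed level was 13.64, 13.72, 15.29 and 11.43. The 8 keratinocyte markers, which mark skin, had a mean level of 4.79 and 4.67 in WT and cKO mice on the control diet and 4.80 and 5.02 on the high fat diet, and on these arrays 3, 1, 1 and 1 of them were above background. The log2 of their summed level was 7.95, 7.77, 7.91 and 8.10. Of these markers, Lor was past 1.5-fold higher in cKO-HFD over WT-HFD, though below background on both arrays, and Krt10 and Lor in cKO-HFD over cKO-CT, with Krt10 at 5.84 on cKO-HFD the only keratinocyte marker above background there. The part of these shifts in the level of Sptlc3 was not tested. In bulk tissue, fewer cells of a type and less RNA per cell cannot be told apart.

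The other subunits of the enzyme stayed close to the same level on every array. Sptlc1 was at 6.99 in WT and 6.95 in cKO mice on the control diet, and 6.96 and 6.79 on the high fat diet, with its lowest level where Sptlc3 was highest, and its genotype ratio was -0.05 on the control diet and -0.17 on the high fat diet. Sptlc2 was at 8.21, 8.38, 8.24 and 8.25 on the same arrays, the narrowest range of the 10 genes at 0.16. Its genotype ratio was 0.16 on the control diet and 0.00 on the high fat diet.

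**Figure D1:**
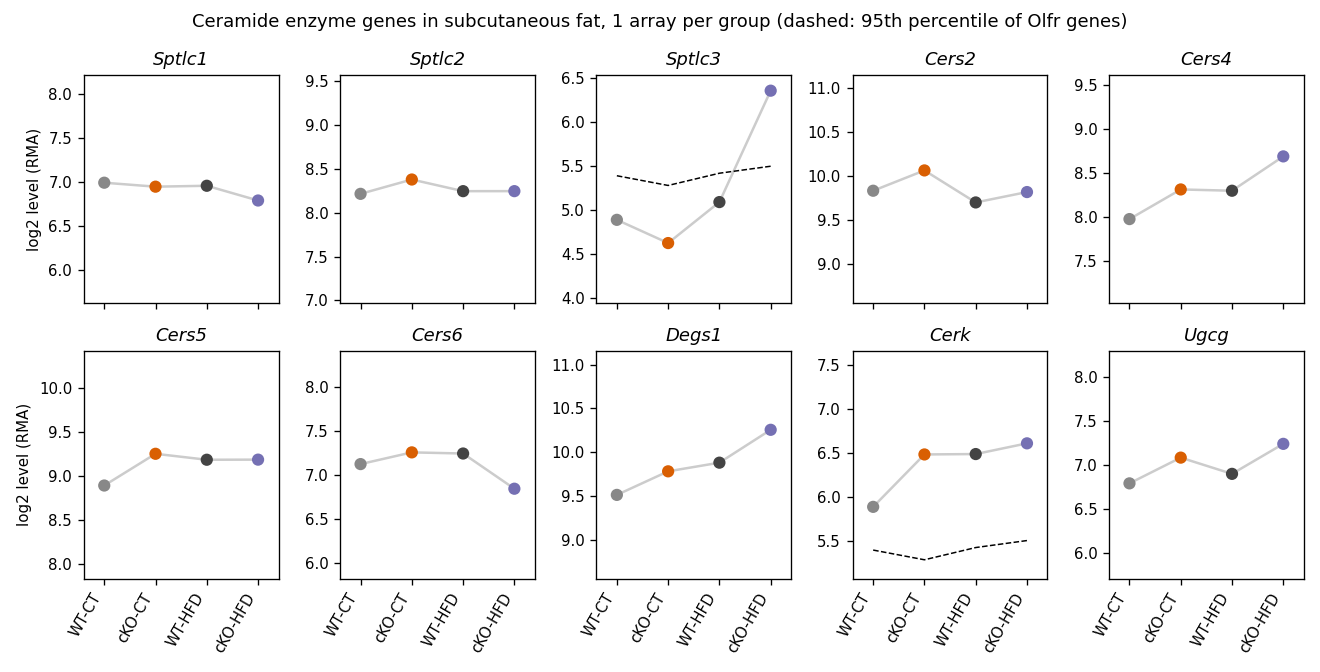
Log2 RMA level (vertical axis) of the 10 genes on the 4 arrays (horizontal axis), 1 point per array, with panels of equal height in log2 units. The dashed line is the 95th percentile of Olfr genes where it falls in the panel. Sptlc3 lies below it on 3 arrays and at 6.36 on cKO-HFD, whereas Cerk is above it on all 4 and lowest on WT-CT, at 5.88.

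The ceramide synthases did not share a pattern. CERS2 is known for very long acyl chains, CERS5 and CERS6 for palmitoyl chains and CERS4 for stearoyl and arachidoyl chains. Cers4 was at 7.98 in WT and 8.31 in cKO mice on the control diet, and 8.30 and 8.69 on the high fat diet. It was thus lowest with neither the deletion nor the high fat diet, highest with both, and nearly equal with either alone. The genotype ratio of Cers4 was 0.34 on the control diet and 0.39 on the high fat diet, or 1.26-fold and 1.31-fold. Its diet ratio was 0.32 in WT and 0.38 in cKO mice, and none of the 4 ratios reached 1.5-fold, although the span from WT-CT to cKO-HFD was 1.64-fold.

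Cers6 ran the other way on the high fat diet. Its level was 7.13 in WT and 7.26 in cKO mice on the control diet, and 7.25 and 6.85 on the high fat diet. The ratio of cKO-HFD was -0.40 over WT-HFD and -0.41 over cKO-CT, or 1.32-fold and 1.33-fold lower, and 4.35% and 5.33% of all genes had a lower ratio. The genotype ratio on the control diet was 0.13. The cKO-HFD array was also the one with the lowest skeletal muscle markers, and their part in the level of Cers6 was not tested.

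Cers5 and Cers2 were highest on the cKO-CT array. Cers5 was at 8.89 in WT and 9.25 in cKO mice on the control diet, and 9.19 and 9.19 on the high fat diet, so that WT-CT was apart from the other 3 arrays. The genotype ratio of Cers5 was 0.36 on the control diet and 0.00 on the high fat diet. Cers2 was at 9.83, 10.07, 9.70 and 9.82 in the same order, with genotype ratios of 0.23 and 0.12 and diet ratios of -0.13 in WT and -0.25 in cKO mice. Cers2 was the only synthase gene with negative ratios for the high fat diet in both genotypes.

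Degs1, which encodes the dihydroceramide desaturase, was lowest on WT-CT and highest on cKO-HFD. It was at 9.51 in WT and 9.78 in cKO mice on the control diet, and 9.88 and 10.26 on the high fat diet. The genotype ratio was 0.27 on the control diet and 0.37 on the high fat diet, and the diet ratio was 0.37 in WT and 0.47 in cKO mice. The last, 1.39-fold, was the largest of the 4, and the whole span was 1.67-fold. No ratio of Degs1 was past 1.5-fold.

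Of the enzymes that use ceramide, ceramide kinase (Cerk) makes ceramide 1-phosphate and glucosylceramide synthase (Ugcg) starts the glycosphingolipids. Cerk was at 5.88 in WT and 6.48 in cKO mice on the control diet, and 6.48 and 6.61 on the high fat diet, above background on all 4 arrays and by only 0.49 on WT-CT. WT-CT was apart from the other 3 arrays, which lay within 0.13 of each other. Compared with WT-CT, the log2 ratio was 0.60 (1.51-fold) with the deletion and 0.60 (1.52-fold) with the high fat diet, and both share the WT-CT array. It was 0.12 for cKO-HFD over WT-HFD and 0.13 for cKO-HFD over cKO-CT. Both calls were just past 1.5-fold, and after cyclic loess normalization the first was 0.58 and no longer called.

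Marker lists of some other cells were also lowest or highest on the WT-CT array, though for brown and beige adipocyte markers the high fat arrays lay well below cKO-CT too. Macrophage markers had a mean level of 7.79 in WT and 8.31 in cKO mice on the control diet, and 8.51 and 8.18 on the high fat diet, with 11 or 12 of 12 above background, and 5 of the 12 were at least 1.5-fold higher in cKO-CT and 8 in WT-HFD than in WT-CT mice. The log2 of their summed level was 11.91, 12.45, 12.73 and 12.29. Brown and beige adipocyte markers had a mean level of 9.18, 8.36, 7.11 and 7.06, with 8 or 9 of 10 above background, and pancreatic acinar markers were highest on WT-CT, with 7 of 7 above background there and 4 or 5 on the other arrays. Stromal progenitor markers, all 8 above background on every array, had a mean level of 9.44, 9.85, 10.08 and 9.75 and a log2 summed level of 13.35, 13.67, 13.83 and 13.55. All 8 had a ratio above 0 over WT-CT both in cKO-CT, with 2 past 1.5-fold, and in WT-HFD, with 4. The log2 of the summed level was 13.68, 12.81, 11.79 and 11.44 for the brown and beige list and 10.51, 8.46, 8.68 and 8.61 for the acinar list. The part of these differences in the level of Cerk was not tested.

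Ugcg was at 6.79 in WT and 7.08 in cKO mice on the control diet, and 6.90 and 7.24 on the high fat diet, so that both cKO arrays lay above both WT arrays. Its genotype ratio was 0.29 on the control diet and 0.34 on the high fat diet, and its diet ratios were 0.11 and 0.16. Both cKO arrays also lay above both WT arrays for Cers4, by a narrow margin, with 8.31 on cKO-CT against 8.30 on WT-HFD, but not for Degs1, which was higher on WT-HFD than on cKO-CT. Endothelial markers, all 8 above background on every array, had a mean level of 8.16, 8.56, 8.37 and 8.71 and a log2 summed level of 11.47, 11.92, 11.73 and 12.16, with none of the 8 past 1.5-fold in any comparison. Ugcg had this order of arrays, as did Cers4 and the mean of the 9 enzyme genes above background on every array. The part of the endothelial markers in these levels was not tested.

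Counted by comparison, 1 of the 10 genes was past 1.5-fold in each, always upwards. In cKO-CT over WT-CT this was Cerk, where 1.64% of all genes were higher and 1.52% lower by that size. In cKO-HFD over WT-HFD it was Sptlc3, with 1.04% of all genes higher and 2.11% lower. In WT-HFD over WT-CT it was Cerk, with 3.16% higher and 2.67% lower, and in cKO-HFD over cKO-CT it was Sptlc3, with 1.82% higher and 2.17% lower. A count of 1 in 10 is above each of these shares, but it is also the smallest count above 0 that 10 genes can give, so it says nothing about the list as a whole. None of the 10 genes was lower by 1.5-fold in any comparison.

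**Figure D2:**
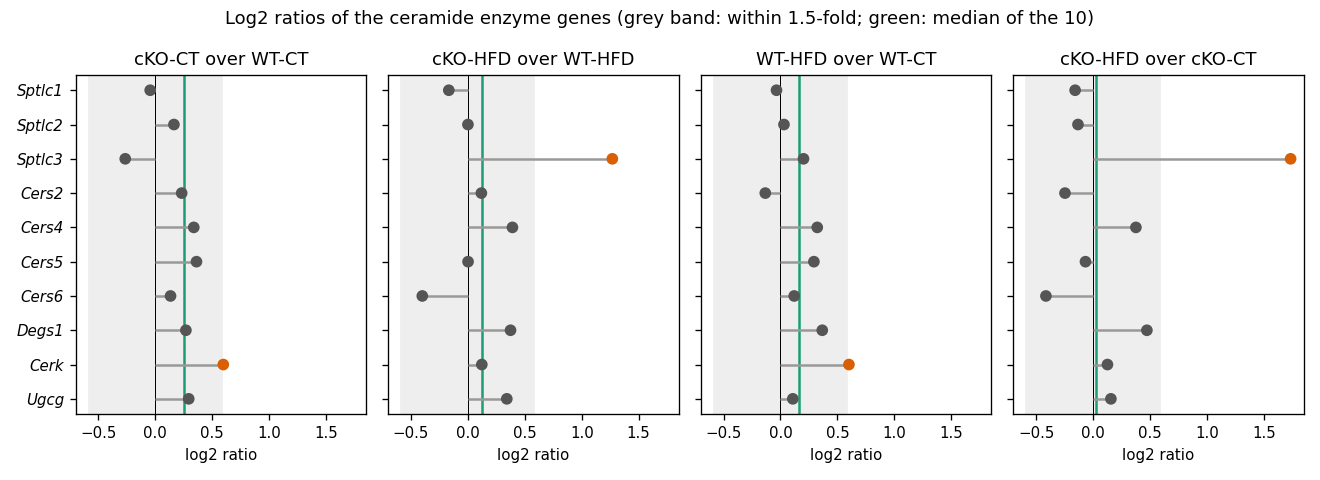
Log2 ratio (horizontal axis) of the 10 genes (rows) in 4 comparisons of 2 arrays each. The grey band covers ratios within 1.5-fold, orange points are past it, and the green line is the median of the 10. Sptlc3 reaches 1.27 and 1.74 in the comparisons with the cKO-HFD array, and Cerk 0.60 in those with the WT-CT array.

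The median log2 ratio of the 10 genes was 0.25 in cKO-CT over WT-CT, against -0.005 over all genes, and 8 of the 10 ratios were above 0, against 49.2% of all genes. After cyclic loess normalization that median was 0.16. In cKO-HFD over WT-HFD the median was 0.12, against 0.027 over all genes, with 8 of 10 above 0 against 55.5% of all genes. After cyclic loess 6 of 10 were above 0, against 50.1% of all genes. In WT-HFD over WT-CT it was 0.16, again with 8 above 0, against 49.2% of all genes. In cKO-HFD over cKO-CT it was 0.03, with 5 above 0 and 5 below, against 52.9% of all genes above 0, and it was -0.067 over the 7 genes with a mean level of at least 7. Of the 11 adipocyte markers, 9 had a ratio above 0 in cKO-CT over WT-CT and 10 in cKO-HFD over WT-HFD. The counts were 4 in WT-HFD over WT-CT and 6 in cKO-HFD over cKO-CT. A majority above 0 in the genotype comparisons was thus not particular to the ceramide enzymes. Of the 10 genes, 6 had their lowest level on WT-CT, and 5 had their highest level on cKO-HFD and 4 on cKO-CT. Their mean level was 7.61 and 7.82 in WT and cKO mice on the control diet and 7.80 and 8.00 on the high fat diet. Over the 9 genes above background on all 4 arrays, which leaves out Sptlc3, it was 7.91, 8.17, 8.10 and 8.19, so that the cKO-HFD and cKO-CT arrays nearly coincided.

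The genotype comparisons on the control and on the high fat diet share no array. Of the 10 genes, 7 had a ratio above 0 in both (Sptlc2, Cers2, Cers4, Cers5, Degs1, Cerk and Ugcg), as did 26.2% of all genes. The high fat ratios of Sptlc2 and Cers5 were 0.00, and after cyclic loess both were below 0, which leaves 5. The diet comparisons in WT and in cKO mice share no array either, and 5 genes were above 0 in both (Sptlc3, Cers4, Degs1, Cerk and Ugcg), as were 27.1% of all genes, although both WT levels of Sptlc3 were below background. Cers4, Degs1, Cerk and Ugcg were above 0 in all 4 comparisons, also after cyclic loess. The 10 genes are not replicates of a condition, and all of them were read from the same 4 pools.

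The genotype difference on the high fat diet minus that on the control diet was 1.53 for Sptlc3, -0.53 for Cers6, -0.47 for Cerk and -0.36 for Cers5, and lay between -0.16 and 0.11 for the other 6 genes. The value for Sptlc3 is built from 3 levels below background, among them both levels on the control diet, so that neither its size nor the sign of its control diet ratio was measured. Cers6, above background on all 4 arrays, had genotype ratios of opposite sign on the diets. The ratios of Cers5 and Cerk were near 0 on the high fat diet after being above 0 on the control diet, and those of Cers4, Degs1 and Ugcg were similar on both. With 1 array per group no difference of this kind could be tested.

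**Figure D3:**
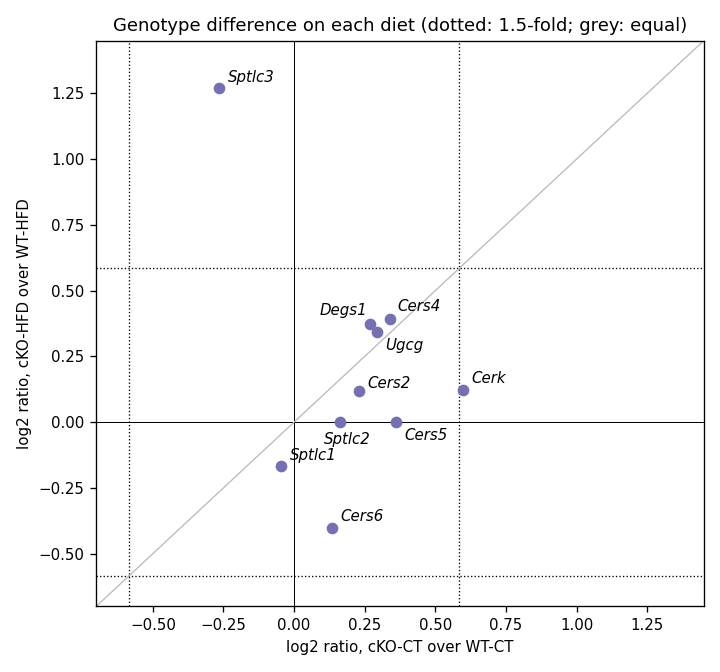
Log2 ratio of cKO-HFD over WT-HFD (vertical axis) against that of cKO-CT over WT-CT (horizontal axis), 1 point per gene. Dotted lines mark 1.5-fold and the grey diagonal marks equal ratios. Sptlc3 lies far above the diagonal at -0.26 and 1.27, with 3 of its 4 levels below background, Cers4, Degs1 and Ugcg lie near it, and Cers5, Cers6 and Cerk lie below it.

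In the rest of sphingolipid metabolism and in fatty acid elongation, 70 genes were measured by a probe set that names only them. Compared with WT-CT, 0 were at least 1.5-fold higher and 3 lower in cKO-CT, or 4.29% lower against 1.52% of all genes. In WT-HFD over WT-CT, 0 were higher and 4 lower, or 5.71% against 2.67%. The 3 genes lower in cKO-CT, and 3 of the 4 lower in WT-HFD, were elongation genes. In cKO-HFD over WT-HFD, 2 were called higher, or 2.86% against 1.04% of all genes, and 0 lower, against 2.11%. Of these 2, Elovl3 was below background on both arrays. In cKO-HFD over cKO-CT, 1 was called higher, or 1.43% against 1.82% of all genes, and it was below background on both arrays. In that comparison 2 were lower, or 2.86% against 2.17%. The median ratio of the 70 genes lay between 0.03 and 0.07 in the 4 comparisons. The other 10 genes of the de novo pathway had no ratio past 1.5-fold. They include the ketosphinganine reductase Kdsr and the ORMDL proteins that restrain serine palmitoyltransferase. The median of these 10 genes was -0.05 in cKO-CT over WT-CT and 0.01 in cKO-HFD over WT-HFD. For the diet it was -0.03 in WT-HFD over WT-CT and 0.16 in cKO-HFD over cKO-CT. Ormdl3 was at 8.34 in WT and 8.23 in cKO mice on the control diet, and 8.00 and 8.29 on the high fat diet. Sptssb and Sptssa, the small subunits that activate the enzyme, were below background on all 4 arrays.

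Lists for other fates of ceramide varied in how near their medians lay to those of the 10 enzymes. The medians below are in the order cKO-CT over WT-CT, cKO-HFD over WT-HFD, WT-HFD over WT-CT and cKO-HFD over cKO-CT. The 9 genes of sphingomyelin synthesis and breakdown had medians of 0.13, 0.06, 0.18 and -0.10, the 8 of glycosphingolipid synthesis beyond Ugcg 0.16, 0.03, 0.12 and 0.13, and the 10 of glycosphingolipid breakdown in lysosomes 0.10, 0.04, 0.12 and 0.07, with none past 1.5-fold. The 4 transfer proteins had medians of 0.24, 0.11, 0.20 and -0.04, also with none, against 0.25, 0.12, 0.16 and 0.03 for the 10 enzymes. In cKO-CT over WT-CT, 8 of the 9 sphingomyelin genes were above 0. The 7 ceramidases and adiponectin receptors had medians of 0.08, 0.11, -0.02 and -0.18. Among them, Acer1 was called higher in cKO-HFD over cKO-CT but was below background on all 4 arrays. The 11 genes of sphingosine 1-phosphate metabolism and receptors had medians of -0.03, 0.12, 0.04 and 0.17. Of these, Sgpl1, the lyase that ends sphingolipid breakdown, was at 8.62 in WT and 8.30 in cKO mice on the control diet, and 7.87 and 7.99 on the high fat diet, a ratio of -0.75 for WT-HFD over WT-CT. S1pr3, a receptor for sphingosine 1-phosphate, was at 6.72, 7.19, 6.90 and 7.54 on the same arrays, with a ratio of 0.65 for cKO-HFD over WT-HFD.

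Fatty acid elongation, which supplies the acyl-CoA for the synthases, held the widest ratios. Elovl6, the elongase of palmitoyl chains, was at 12.07 in WT and 11.27 in cKO mice on the control diet, and 7.02 and 7.47 on the high fat diet, a ratio of -0.80 for cKO-CT over WT-CT and of -5.05 for WT-HFD over WT-CT. Elovl3, an elongase of brown and beige fat, was at 8.91, 6.94, 4.04 and 4.97, with a genotype ratio of -1.98 on the control diet. Both high fat arrays of Elovl3 were below background, which made WT-HFD at least 11.3-fold lower than WT-CT and cKO-HFD at least 2.71-fold lower than cKO-CT, with no fold given between them. Hsd17b12, the ketoacyl-CoA reductase of elongation, was at 9.59, 8.98, 8.05 and 8.51, with ratios of -0.60 for cKO-CT and -1.53 for WT-HFD over WT-CT. None of the 10 ceramide enzymes had a ratio as low as any of these. Elovl3 also stands in the list of brown and beige adipocyte markers, which were lower on the same arrays, and the part of those cells in the elongation genes was not tested. The other 8 elongation genes were within 1.5-fold in all 4 comparisons.

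**Figure D4:**
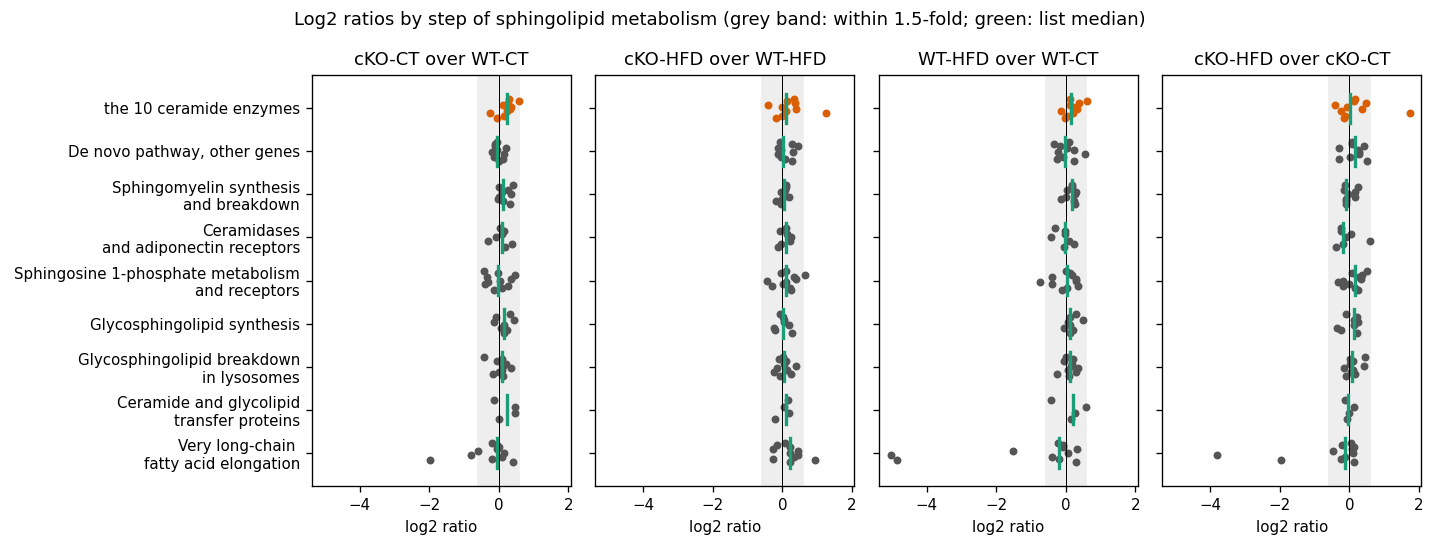
Log2 ratio (horizontal axis) of the 10 ceramide enzymes (orange) and of 8 lists of related genes (grey), 1 point per gene, in 4 comparisons. The grey band covers ratios within 1.5-fold and green bars are list medians. Ratios below the band are from Elovl3, Elovl6 and Hsd17b12 of the elongation list, and Sgpl1 in WT-HFD over WT-CT.

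Genes with the pattern of Sptlc3 were sought among 5362 genes with a mean level of at least 7, by the root mean square difference between array-centred log2 levels over the 4 arrays. The closest was Paqr9, at 0.260, with levels of 8.20 in WT and 8.13 in cKO mice on the control diet, and 8.32 and 9.15 on the high fat diet. It was followed by Gm10851 at 0.288, Slc16a12 at 0.292, Myl4 at 0.334 and Tnfrsf12a at 0.342. All 5 were highest on cKO-HFD, which follows from the search for genes like Sptlc3 and is not a separate result. Since Sptlc3 was below background on the other 3 arrays, its order among those arrays was not measured and the likeness rests on the cKO-HFD array. In all, 134 genes lay within 0.5.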

How the data were processed

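Subcutaneous adipose tissue RNA of WT and cKO mice on both diets was measured on Affymetrix Mouse Gene ST arrays, with 1 pool and 1 array per group. The authors deposited 1 log2 level for each probe set and array, made by RMA (Affymetrix Expression Console, per the submitters' processing notes). RMA forces arrays to a common distribution, which can hide a shift shared by most genes. The number of arrays limits the precision.

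Of 35556 probe sets, 21789 carried 1 gene name in the platform annotation, which can be old, 1621 several and 12146 none. Probe sets naming only the same gene were averaged, which concerned 999 of 19938 genes and none of the 10 enzymes. The median log2 level was 5.55 to 5.60 per array, and r between arrays, across genes, was 0.980 to 0.989.

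Log2 ratios, 1.5-fold calls, list medians and promoter counts were computed in Python 3.11.15 with pandas 2.3.3, and cyclic loess (span 0.7, 3 iterations) with limma 3.58.1 in R 4.3.3. The steps were tested on simulated data. Alternatives changed the normalization, the probe set, the filter on low levels and the size of a call. No test was made. The text names all 10 enzymes, up to 4 genes past 1.5-fold per pathway list, Napepld, the 5 genes nearest to the enzyme gene of the widest range, and markers; Ormdl3, Kdsr, Sptssa and Sptssb were named after their values were seen. The enzymes and lists were chosen with earlier results of these data known.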

Additional observations from a re-analysis of the deposited data

Results flagged for a closer look

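Sptlc3 was singled out for the difference between its genotype ratios on the diets. The ratios were -0.26 on the control diet and 1.27 on the high fat diet, a difference of 1.53 on the log2 scale. After cyclic loess normalization the difference was 1.42. The difference was not tested, since each group has 1 array, and Sptlc3 was above the background level only on the cKO-HFD array, so the sign of its control diet ratio and the size of the difference were not measured.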

How the results depend on the processing

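The median ratio of the 10 genes stayed above 0 under every alternative in 3 comparisons, at 0.16 to 0.28 for cKO-CT over WT-CT, 0.11 to 0.12 for cKO-HFD over WT-HFD and 0.12 to 0.16 for WT-HFD over WT-CT. For cKO-HFD over cKO-CT it was 0.03, and -0.067 when genes with a mean log2 level under 7 were left out, a filter that removes Sptlc1, Sptlc3 and Cerk. Under that filter 0 genes were higher by 1.5-fold in each of the 4 comparisons, since it removes both genes called. At a size of 2-fold, 0 genes were higher in cKO-CT over WT-CT and 0 in WT-HFD over WT-CT. At 1.3-fold, 2 genes were higher and 1 lower in cKO-HFD over WT-HFD, and likewise 2 and 1 in cKO-HFD over cKO-CT. After cyclic loess 0 genes were higher in cKO-CT over WT-CT, as Cerk moved from 0.60 to 0.58, and the cause was not tested. The other 72 values of medians and counts, and all 235 of single genes, moved by less than the spread used. As replicates are lacking, that spread was a robust SD of all genes' ratios, 0.20 to 0.24 by comparison, or for a median the error that this SD gives, and a count within 1.5 times. Each gene had 1 probe set, so the choice of probe set changed nothing, and a filter on low levels cannot change the ratio of a single gene. For single genes only cyclic loess and centring each array on its median could move a value. Most of the 235 were therefore fixed in advance and say nothing about stability. Leaving out a replicate could not be done with 1 array per group. No paired analysis was possible because each group has 1 array. Array error was not measured, and for Sptlc3 the signal over background limits its ratios, since 3 of its 4 levels were below the Olfr level.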
